A study of Mus musculus with 26 samples.

Results

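The platelet-derived growth factor (PDGF) family of the mouse was described in sorted glioma cells: the ligand genes Pdgfa, Pdgfb, Pdgfc and Pdgfd and the receptor genes Pdgfra and Pdgfrb. The 6 genes were taken by Entrez identifier from 24454 genes listed with read counts, and all 6 were among the 15617 that passed the filter on low counts. Early gliomas were dissected from mouse brains, cells in which Cre recombinase had switched on GFP at the Rosa locus were sorted by flow cytometry, and stranded RNA libraries were sequenced. By their labels, all tumours were PDGF-driven and had lost the tumour suppressor Trp53. The tumours were further Rbpj-/- (n = 4 libraries), Notch1-/-Notch2-/- (n = 5), Notch1-/- (n = 6), Notch2-/- (n = 5) or control with intact Notch signalling (n = 6). Notch1 and Notch2 are receptors for ligands on neighbouring cells, and their cleaved forms act in the nucleus by joining Rbpj, which binds DNA. The labels name neither the driver of Cre, nor the age of the animals, nor the PDGF gene that started the tumours. Separate animals are not stated for the replicates, although some replicates differ in sex-linked RNA, as given below. The p-values below therefore measure the spread between libraries, which may in part be technical.

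PDGF ligands are secreted dimers that bring receptor tyrosine kinases together at the cell surface. The receptor encoded by Pdgfra binds A, B and C chains and marks oligodendrocyte precursors, whose growth in the developing brain depends on PDGF-A. The receptor encoded by Pdgfrb binds B and D chains and, in the brain, marks pericytes and other mural cells around vessels, while Pdgfb from endothelium is known for recruiting those cells. Amplified or overactive PDGF signalling is a known feature of human gliomas, and raised PDGF starts gliomas in mice.

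Libraries held 30868828 to 48103535 counts. Rbpj was at 20.4 to 52 CPM, the usual unit of counts relative to library size, in Rbpj-/- libraries and at 52.9 to 68 CPM in control libraries. Notch2 was at 6.14 to 8.58 CPM in Notch2-/- libraries and at 9.42 to 16.4 CPM in control libraries, but at 9.43 to 12.9 CPM in the libraries labelled Notch1-/-Notch2-/- (adjusted p = 0.377 against control, edgeR). Notch1 was at 88.2 to 214 CPM in libraries labelled Notch1-/- and at 71.2 to 148 CPM in control, a log2 difference of 0.4 ± 0.24 (SE, adjusted p = 0.204). Trp53, lost in all groups by the labels, was at 8.14 to 18.1 CPM in the libraries. Counts over whole genes do not show whether a deleted exon is missing. In 3 libraries Xist was above 50 CPM and the Y-linked Ddx3y above 10 CPM, limits set after the data were seen. Replicate 3 of Notch2-/- had 71.3 CPM of Xist with 45.9 CPM of Ddx3y, replicate 4 of Notch2-/- had 1920 CPM with 74.1 CPM, and replicate 6 of control had 412 CPM with 64 CPM. Calls of members, and counts of the lists around the family, that change without these 3 are given both ways. Some replicates of a genotype differed in sex. Replicate 1 of control had 1620 CPM of Xist with 0 CPM of Ddx3y, and replicate 2 of control had 0.527 CPM with 109 CPM. Such replicates are not repeats of the same animal, while for replicates alike in both genes separate animals are not shown. The oligodendrocyte precursor markers Olig1, Olig2 and Sox10 were detected in every library. Microglia and macrophage markers summed to 114 to 209 CPM in Rbpj-/-, 45.5 to 146 in Notch1-/-Notch2-/-, 49.8 to 236 in Notch1-/-, 267 to 595 in Notch2-/- and 321 to 1360 in control, and endothelial markers summed to 16.8 to 28.5, 12.4 to 26.3, 8.56 to 34.9, 30.3 to 96.9 and 35.7 to 156 CPM in the same order of genotypes. The defining markers of both lists were at 0 in no library. Mature oligodendrocyte markers summed to 3810 to 9890 CPM in Rbpj-/-, 2400 to 6500 in Notch1-/-Notch2-/-, 2470 to 21400 in Notch1-/-, 2730 to 22700 in Notch2-/- and 10300 to 26800 in control, and astrocyte markers to 814 to 1280, 553 to 1150, 873 to 1290, 1560 to 2440 and 1430 to 2260 CPM.

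Sequence before an annotated start site was read for the member that passed the test and for the most abundant one. Both stretches are the 250 bases before a start site in the RefSeq promoter table of GRCm38.p6, and neither overlaps an exon of GENCODE vM21. Pdgfd is shown at chr9:6168236-6168485 and Pdgfra at chr5:75152001-75152250, both on the plus strand. These are start sites within the gene records whose positions are given below: the Pdgfra stretch lies wholly inside its record, and the Pdgfd stretch runs across the start of its record, with the motif inside. Capitals mark TTCCCA, the reverse complement of TGGGAA, a short form of the sequence that Rbpj binds.
Pdgfd: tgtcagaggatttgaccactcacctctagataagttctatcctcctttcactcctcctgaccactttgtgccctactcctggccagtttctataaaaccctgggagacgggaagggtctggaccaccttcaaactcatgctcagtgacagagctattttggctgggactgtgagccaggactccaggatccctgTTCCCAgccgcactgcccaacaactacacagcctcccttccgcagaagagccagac
Pdgfra: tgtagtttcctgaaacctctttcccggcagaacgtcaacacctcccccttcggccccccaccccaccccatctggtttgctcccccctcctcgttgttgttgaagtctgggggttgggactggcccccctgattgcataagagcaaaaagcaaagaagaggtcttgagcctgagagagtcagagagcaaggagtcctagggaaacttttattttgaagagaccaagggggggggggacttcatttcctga
The Pdgfd stretch holds the motif once, 56 to 51 bases before the start, and the Pdgfra stretch holds it on neither strand. Of the other windows available, 1 of Pdgfa has TGGGAA 13 to 8 bases before its start, while the other Pdgfa window and that of Pdgfc have no match. Of 32851 such windows in the table, 7094 (21.6%) hold the motif on either strand, so a match is common, and it is a description of letters only.

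The receptors stood far apart in level. Pdgfra (Entrez 18595, GRCm38 chromosome 5, 75151322 to 75198206) was at 1680 to 7180 CPM over the 26 libraries, with 61620 to 285204 counts and 0.175 to 0.712% of all counts. Per kilobase of the deposited gene length it was the highest of the 6 members in 26 of 26 libraries, and its rank among the 15617 genes tested ran between 3 and 145, with a median of 16. Pdgfrb (Entrez 18596, chromosome 18, 61045127 to 61085067) was at 0.52 to 47.6 CPM. The ratio of Pdgfra to Pdgfrb per kilobase had a median of 404 and ran from 80.9 to 3090. Among the ligands, Pdgfa was the highest per kilobase in 16 libraries and Pdgfb in the other 10, and Pdgfd was the lowest of all 6 genes in 26 of 26. The order of Pdgfa and Pdgfb rests on the deposited lengths, 1018 and 2942 bases, while their longest GENCODE transcripts have 2060 and 2944. In CPM without length the medians were 8.13 for Pdgfa, 23.1 for Pdgfb and 15.7 for Pdgfc.

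**Figure D1:**
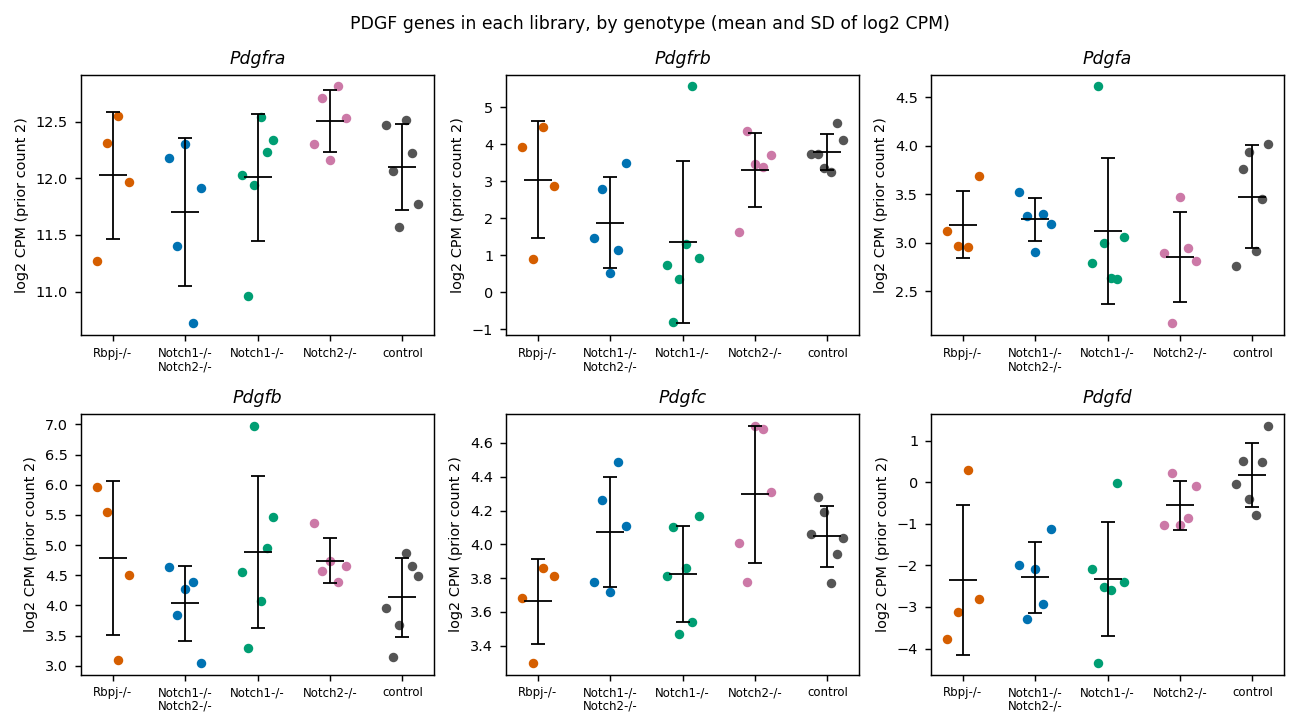
Log2 CPM of the 6 PDGF genes in each of 26 libraries (1 point per library, vertical axis with its own range per gene), by genotype, with the mean and SD as a bar. Pdgfd is lower in every Notch1-/-Notch2-/- library than in any control library, while 1 Notch1-/- library stands far above the other 5 for Pdgfrb and another for Pdgfa. How many of all genes separate as Pdgfd does was not counted.

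Pdgfd was the 1 member that passed the edgeR test against control, and it was lower in Notch1-/-Notch2-/- and Notch1-/- tumour cells. For the other members, not passing does not show that they stayed the same. Genes were tested with edgeR's quasi-likelihood test and called at a Benjamini-Hochberg adjusted p under 0.05. In Notch1-/-Notch2-/- 1 of 6 members passed, Pdgfd, where 37.1% of all genes tested were called. In Notch1-/- 1 of 6 passed, again Pdgfd, where 26.7% of genes were called. In Rbpj-/- 0 of 6 passed, where 15.2% of genes were called, and in Notch2-/- 0 of 6, where 0.295% were called. Before adjustment, 1 member in Rbpj-/- and 0 in Notch2-/- had a p under 0.05; DESeq2 called 0 in both, and voom with quality weights called 1 in Rbpj-/- (Pdgfd) and 0 in Notch2-/-. These 4 comparisons share the control libraries. Shares of all genes called are given for the main edgeR fit only, and those of DESeq2 and voom were not counted. The median log2 fold change of the 6 members was -0.33 in Rbpj-/-, -0.31 in Notch1-/-Notch2-/-, -0.22 in Notch1-/- and -0.03 in Notch2-/-, beside 0.07, 0.01, 0.03 and 0.01 for all genes tested.

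**Figure D2:**
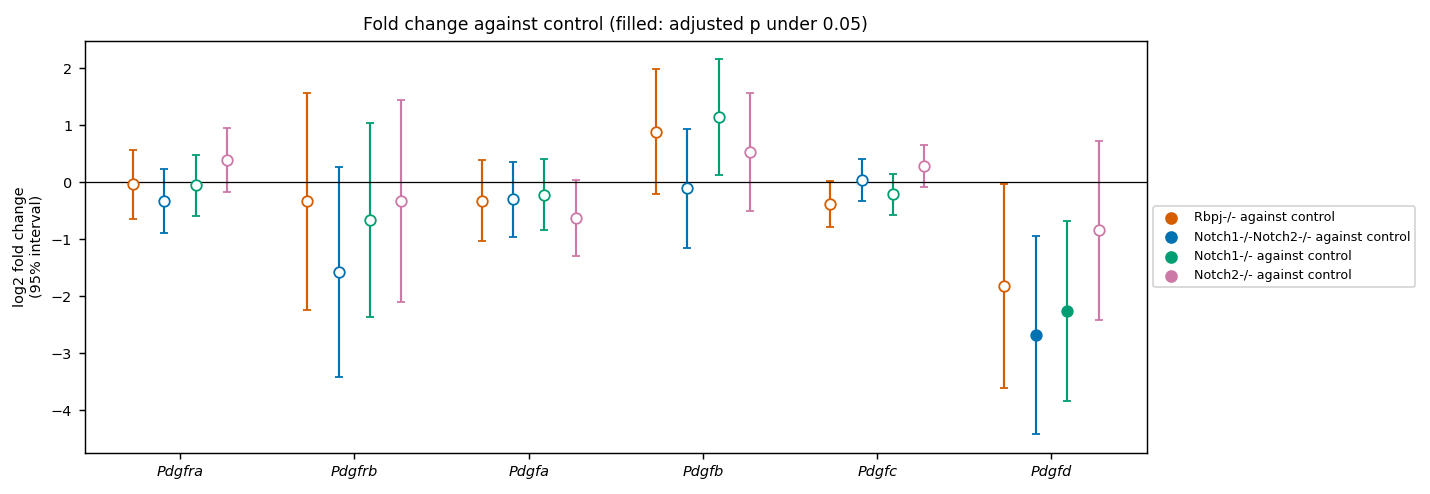
Log2 fold change against control of each PDGF gene in Rbpj-/-, Notch1-/-Notch2-/-, Notch1-/- and Notch2-/- tumour cells, from edgeR, with 95% intervals; filled points have an adjusted p under 0.05. Only Pdgfd in Notch1-/-Notch2-/- and Notch1-/- is filled, at -2.69 and -2.26.

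Pdgfd (Entrez 71785, chromosome 9, 6168363 to 6534284) encodes a ligand of the receptor made by Pdgfrb that becomes active once its CUB domain is cut off. It was at 0.0234, 0.0658, 1.18 and 0.0928 CPM in Rbpj-/- libraries. In Notch1-/-Notch2-/- it was at 0.205, 0.053, 0.187, 0.0819 and 0.41 CPM. In Notch1-/- the lowest, median and highest values were 0, 0.134 and 0.927 CPM, in Notch2-/- the libraries were at 0.437, 1.11, 0.445, 0.507 and 0.89 CPM, and in control the lowest, median and highest were 0.526, 1.13 and 2.51 CPM. All Notch1-/-Notch2-/- libraries lay below all control and all Notch2-/- libraries, whereas 1 library of Rbpj-/- and 1 of Notch1-/- reached into the control range. How many of all genes separate in this way was not counted. In those 2 comparisons of Notch1-/-Notch2-/- 37.1 and 17.4% of all genes were called. The counts behind these levels are few, 0 to 93 per library, and the count of 0 in replicate 2 of Notch1-/- allows a level of up to 0.0822 CPM (3 counts, counting error only). Pdgfd passed the filter on low counts mainly through control (23 to 93 counts) and Notch2-/- (19 to 44). Its place among the genes tested thus already depended on the genotypes where it is high. Counts were 1 to 46 in Rbpj-/-, 2 to 16 in Notch1-/-Notch2-/- and 0 to 39 in Notch1-/-.

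Pdgfd fell in Notch1-/-Notch2-/-, with a log2 fold change of -2.69 ± 0.84 (SE, adjusted p = 0.0154, edgeR), and kept its call without each of the 11 libraries compared in turn (log2 fold changes of -3.17 to -2.35). In bulk RNA of sorted cells, fewer cells of a type and less RNA per cell cannot be told apart. It also fell in Notch1-/- (-2.26 ± 0.77, adjusted p = 0.0329). This call ended without replicate 1, 3, 4 or 6 of Notch1-/- (adjusted p between 0.0628 and 0.0678), without replicate 2 or 6 of control (0.0553 and 0.0827) and without the 3 libraries that hold both Xist and Ddx3y (-1.92, adjusted p = 0.0937). In Rbpj-/- the difference was -1.83 ± 0.87 (adjusted p = 0.15), and without replicate 3, the library at 1.18 CPM, it was -4.28 ± 0.98 (adjusted p = 0.00524). In Notch2-/- it was -0.85 ± 0.76 (adjusted p = 0.587). Across all 5 genotypes in 1 test Pdgfd was the member called (adjusted p = 0.0402), where 29.3% of genes were called, and that call ended without each of 13 single libraries (highest adjusted p 0.114, without replicate 6 of control) and without the 3 with both Xist and Ddx3y (0.133). In the main edgeR fit no test of a difference between mutant genotypes passed for Pdgfd, with -1.83 ± 0.85 for Notch1-/-Notch2-/- against Notch2-/- (adjusted p = 0.137). By voom Pdgfd was called against Notch2-/- in both Notch1-/-Notch2-/- and Notch1-/-.

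Markers of several other cell types moved with Pdgfd, those of mural cells and fibroblasts among them. The 17 markers of this list, which does not hold Pdgfrb, summed to 21.6 to 1040 CPM in Rbpj-/- (median 275), 25.6 to 386 in Notch1-/-Notch2-/- (72.1), 20.6 to 1460 in Notch1-/- (39.9), 50.8 to 1140 in Notch2-/- (227) and 220 to 1030 in control (454), and the defining markers Rgs5, Vtn and Kcnj8 were at 0 in no library. Of 16 markers tested, 3 fell in Rbpj-/-, 4 in Notch1-/-Notch2-/-, 6 in Notch1-/- and 0 in Notch2-/-, where 7.25, 18.8, 13.5 and 0.166% of all genes fell. The highest sums in Rbpj-/- and Notch1-/-, 1040 and 1460 CPM, were in the libraries with the most Pdgfd, at 1.18 and 0.927 CPM. Over the 26 libraries Pdgfd was higher where the mean log2 CPM of the list was higher (Pearson r = 0.75, Spearman rho = 0.78, adjusted permutation p = 0.000315 and 0.00021 over 42 pairs of member and list), and r was 0.71 without the 2 libraries farthest from the median score. As deviations from the genotype means r was 0.57 (adjusted p = 0.154). Pdgfd had r = 0.74 with the endothelial score (adjusted p = 0.00028), 0.70 with the astrocyte score (0.000756), 0.57 with the score of microglia and macrophages (0.0167) and 0.55 with that of mature oligodendrocytes (0.0233). As deviations from the genotype means these were 0.38, 0.12, -0.25 and -0.02. Of 12 mature oligodendrocyte markers 9, 11 and 9 fell in Rbpj-/-, Notch1-/-Notch2-/- and Notch1-/-, of 12 astrocyte markers 4, 8 and 7, and 0 of either in Notch2-/-. The part of endothelial, astrocyte and oligodendrocyte markers in the Pdgfd result was not tested. With the mural and fibroblast score as a covariate, the difference of Pdgfd against control was -1.1 ± 0.81 in Notch1-/-Notch2-/- (adjusted p = 0.337) and -0.79 ± 0.81 in Notch1-/- (adjusted p = 0.581). With the score of microglia and macrophages in the fit it was -4.76 ± 1.79 (adjusted p = 0.154) and -4.53 ± 1.9 (adjusted p = 0.367). Sums of the microglia and macrophage markers did not overlap between control and these genotypes, so this last fit can hardly separate score from genotype.

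Pdgfrb, the receptor gene of mural cells, ranged over 91.6-fold between libraries, with 19 to 2003 counts. It was at 15.1, 1.81, 22.2 and 7.31 CPM in Rbpj-/- and at 2.73, 6.94, 1.38, 2.16 and 11.3 CPM in Notch1-/-Notch2-/-. In Notch1-/- the lowest, median and highest values were 0.52, 1.73 and 47.6 CPM, in Notch2-/- the libraries were at 3.06, 20.5, 11, 10.4 and 13 CPM, and in control the lowest, median and highest were 9.48, 13.4 and 23.8 CPM. In Notch1-/- replicate 5 stood above every other library of the series and the remaining 5 lay below every control library.

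The log2 difference of Pdgfrb against control was -0.67 ± 0.82 in Notch1-/- (adjusted p = 0.558). Without replicate 5 of Notch1-/- it was -3.26 ± 0.62 (adjusted p = 0.00113), and Pdgfrb was then also lower in Notch1-/- than in Notch2-/- (-2.92 ± 0.62, adjusted p = 0.00716) and higher in Rbpj-/- than in Notch1-/- (2.92 ± 0.64, adjusted p = 0.035). In Notch1-/-Notch2-/- the difference against control was -1.58 ± 0.89 (adjusted p = 0.167), with an adjusted p of 0.024 where only the compared libraries entered the fit. In Rbpj-/- it was -0.33 ± 0.92 (95% interval -2.24 to 1.57) and in Notch2-/- -0.34 ± 0.86 (-2.11 to 1.44), intervals too wide to tell a change of several fold from none.

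Pdgfrb followed the mean score of the mural and fibroblast markers from library to library. Its r with their score was 0.96 and rho 0.92 over 26 libraries, r was 0.96 as deviations from the genotype means, and it was 0.95 without the 2 libraries farthest from its median (permutation p = 1e-05, the smallest that 100000 permutations can give, adjusted 0.00021, 0.00021 and 0.00042 for the first 3). With this score as a covariate, the sign of the Pdgfrb difference turned in all 4 comparisons with control, to 1.02 ± 0.28 in Rbpj-/- (adjusted p = 0.0295), 0.82 ± 0.29 in Notch1-/-Notch2-/- (0.0453), 1.03 ± 0.29 in Notch1-/- (0.073) and 0.35 ± 0.25 in Notch2-/- (0.548). The genes most alike to Pdgfrb by Spearman rho over the 26 libraries were Aldh1a2 and Tmem204 (0.96 each) and Col15a1 and Nid1 (0.94 each), of which Col15a1 and Nid1 encode basement membrane proteins. The next marker list by rho was the endothelial one, at 0.75. In Notch1-/-, where Pdgfrb reached 47.6 CPM, the defining markers Rgs5, Vtn and Kcnj8 reached at most 6.11, 3.78 and 0.452 CPM. Their control medians were 26.9, 14.3 and 1.26 CPM. The list joins mural and fibroblast genes, and which of them Pdgfrb follows was not tested. In control, Col1a1, Col1a2, Col3a1, Dcn and Lum had mean levels of 30.7, 65, 122, 131 and 66.5 CPM. Those of Rgs5, Vtn and Kcnj8 were 31, 17.3 and 1.52 CPM, so the summed CPM of the list rests more on the former genes.

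**Figure D3:**
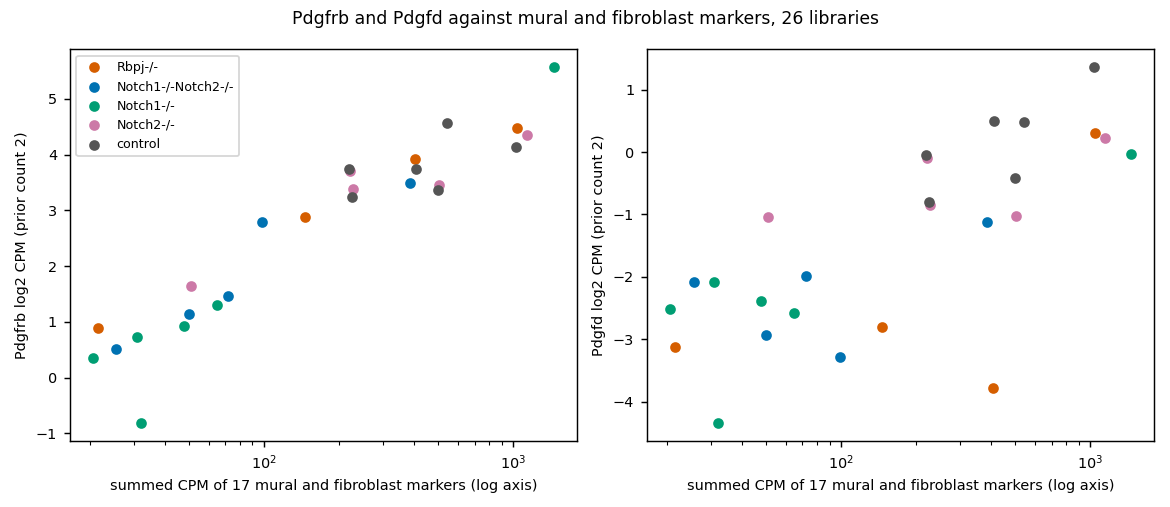
Log2 CPM of Pdgfrb (left) and Pdgfd (right) against the summed CPM of 17 mural and fibroblast markers on a log axis, 1 point per library, coloured by genotype. Pdgfrb runs close to a line through all genotypes, and the Notch1-/- point at 1460 CPM of markers is replicate 5, with 47.6 CPM of Pdgfrb. The sum rests more on the collagen genes, Dcn and Lum than on Rgs5, Vtn and Kcnj8.

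Pdgfd and Pdgfrb, a ligand and its receptor, went together across libraries. Their r was 0.73 and rho 0.74 (adjusted permutation p = 0.00105 and 0.00075 over 15 pairs of members), r was 0.67 as deviations from the genotype means (adjusted p = 0.034) and 0.80 without the 2 libraries farthest from the median of Pdgfd. With the mural and fibroblast score taken out of both, r was 0.05. The genes most alike to Pdgfd were Atp6ap2 (rho 0.92), Gulp1 (0.91), C1galt1c1 (0.89) and Slc6a20a (0.88), each over 26 libraries.

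Pdgfra, the receptor gene of oligodendrocyte precursors, passed no test in the main edgeR fit. Some alternatives given below, voom among them, did call it. It was at 2460, 5090, 5980 and 4020 CPM in Rbpj-/- and at 4630, 2700, 5050, 1680 and 3850 CPM in Notch1-/-Notch2-/-. In Notch1-/- the lowest, median and highest values were 2000, 4480 and 5930 CPM, in Notch2-/- the libraries were at 5050, 6720, 4570, 7180 and 5900 CPM, and in control the lowest, median and highest were 3040, 4510 and 5820 CPM. All ranges overlap, with the highest libraries in Notch2-/- and the lowest in Notch1-/-Notch2-/-. Log2 differences against control were -0.04 ± 0.29 in Rbpj-/- (95% interval -0.64 to 0.56), -0.33 ± 0.27 in Notch1-/-Notch2-/- (-0.9 to 0.23), -0.06 ± 0.26 in Notch1-/- (-0.59 to 0.48) and 0.38 ± 0.27 in Notch2-/- (-0.18 to 0.95). Between Notch1-/-Notch2-/- and Notch2-/-, where 17.4% of genes were called, the difference was -0.72 ± 0.29 (adjusted p = 0.0859), and without replicate 3 of Notch1-/-Notch2-/- it had an adjusted p of 0.0471. Of 16 oligodendrocyte precursor markers, which leave Pdgfra out, 1 rose in each of Rbpj-/-, Notch1-/-Notch2-/- and Notch1-/- and 1 fell in Notch1-/-Notch2-/-. Of all genes 7.97, 18.3 and 13.2% rose in these comparisons, and 18.8% fell in Notch1-/-Notch2-/-. Sox6 was the one that rose (0.61, 0.82 and 0.81 on the log2 scale) and Olig1 the one that fell (-0.61). Pdgfra had r = 0.22 and rho = 0.26 with the mean score of these 16 markers (adjusted permutation p = 0.404 and 0.428 over 42 pairs). As deviations from the genotype means r was 0.3 (adjusted p = 0.526). Its highest r with any marker score was 0.48, with the neuron list (adjusted p = 0.0565).

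Libraries differed in the level of long against short genes, and Pdgfra, a long gene, moved with this. A score was formed as the mean log2 CPM of the 10% longest genes (6442 bases or more by the deposited length) minus that of the 10% shortest (1151 or fewer), centred per gene, with members left out; it was added after the data were seen. The score ran between -1 and 0.33 in Rbpj-/-, -0.28 and 0.35 in Notch1-/-Notch2-/-, -0.02 and 0.4 in Notch1-/-, -0.64 and 0.7 in Notch2-/- and -1.23 and 0.24 in control, with medians of 0.15, 0.09, 0.35, 0.36 and -0.39, so that it differs with genotype too, and what sets it was not tested. Pdgfra had r = 0.48 and rho = 0.55 with it over 26 libraries (adjusted permutation p = 0.0592 and 0.0445 over 12 pairs), 0.64 as deviations from the genotype means (adjusted p = 0.00132) and 0.35 without the 2 libraries farthest from its median. With the score as a covariate, Pdgfra was lower in Notch1-/-Notch2-/- than in control (-0.67 ± 0.23, adjusted p = 0.028) and than in Notch2-/- (-0.67 ± 0.23, adjusted p = 0.0281), while Pdgfd kept both of its calls. The genes most alike to Pdgfra were Ryr2 (rho 0.94), a calcium release channel of very long coding sequence, B3gat2 and Slc4a10 (0.93 each) and Lgalsl (0.92).

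**Figure D4:**
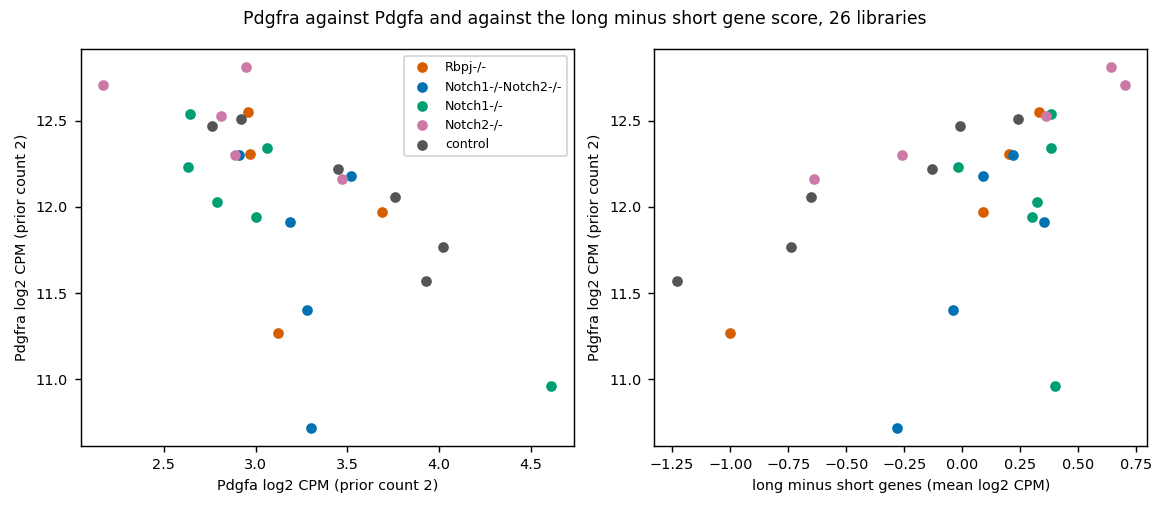
Log2 CPM of Pdgfra in 26 libraries against log2 CPM of Pdgfa (left) and against the score of long minus short genes (right, difference of mean log2 CPM), coloured by genotype. Pdgfra is lower where Pdgfa is higher (r = -0.63), and higher where long genes are higher (r = 0.48).

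Pdgfa, the ligand that precursors respond to through the receptor of Pdgfra, ran against that receptor gene. Their r was -0.63 and rho -0.69 over 26 libraries (adjusted permutation p = 0.00547 and 0.0009 over 15 pairs), r was -0.65 as deviations from the genotype means (adjusted p = 0.018) and -0.50 without the 2 libraries farthest from the median of Pdgfa (unadjusted p = 0.0118). Pdgfa had r = -0.47 with the score of long minus short genes (adjusted p = 0.0592), and with that score taken out of both genes their r was -0.52. The genes most alike to Pdgfa were Pnpla2 (rho 0.85), Capn5 (0.84), Zdhhc12 and Ccs (0.83 each).

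Pdgfa (Entrez 18590, chromosome 5, 138976014 to 139000792) was at 8.66, 7.79, 7.72 and 12.9 CPM in Rbpj-/- and at 11.4, 9.69, 7.49, 9.78 and 9.05 CPM in Notch1-/-Notch2-/-. In Notch1-/- the lowest, median and highest values were 6.13, 7.41 and 24.4 CPM, in Notch2-/- the libraries were at 7.38, 4.46, 11, 7.69 and 6.97 CPM, and in control the lowest, median and highest were 6.71, 12.2 and 16.1 CPM. The ranges overlap, and replicate 2 of Notch1-/- alone exceeded every control library. Log2 differences against control were -0.33 ± 0.34 in Rbpj-/-, -0.3 ± 0.32 in Notch1-/-Notch2-/-, -0.23 ± 0.3 in Notch1-/- and -0.63 ± 0.32 in Notch2-/- (adjusted p between 0.356 and 0.596). Without replicate 2 of Notch1-/-, Pdgfa was lower in Notch1-/- than in control (-0.7, adjusted p = 0.0255).

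Pdgfb (Entrez 18591, chromosome 15, 79995865 to 80024614), whose product binds both receptors, spread over 15.3-fold. It was at 62, 46.7, 8.54 and 22.7 CPM in Rbpj-/- and at 24.9, 14.3, 19.2, 21 and 8.25 CPM in Notch1-/-Notch2-/-. In Notch1-/- the lowest, median and highest values were 9.79, 27.3 and 126 CPM, in Notch2-/- the libraries were at 40.9, 23.7, 26.6, 20.7 and 25.1 CPM, and in control the lowest, median and highest were 8.77, 19 and 29.2 CPM. Values above the control range occurred in 2 libraries of Rbpj-/-, 3 of Notch1-/- and 1 of Notch2-/-. Because the labels do not give the PDGF gene or vector that drove the tumours, reads of an introduced PDGF chain cannot be told apart from those of the mouse gene here.

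The log2 difference of Pdgfb against control was 1.14 ± 0.49 in Notch1-/- (adjusted p = 0.0818 by edgeR, and 0.0493 by DESeq2). Without replicate 2 of Notch1-/- it was 1.36 (adjusted p = 0.0302). It was 0.88 ± 0.53 in Rbpj-/- (adjusted p = 0.264), -0.11 ± 0.51 in Notch1-/-Notch2-/- (0.878) and 0.53 ± 0.5 in Notch2-/- (0.611). The interaction, the change with both receptors lost beyond the sum of the single losses, was -1.78 ± 0.72 (adjusted p = 0.319), where 0.0768% of genes were called, and Notch1-/-Notch2-/- against Notch1-/- gave -1.25 ± 0.52 (adjusted p = 0.33), where 0.64% were called. Pdgfb had r = 0.50 with a score of GC-rich minus GC-poor genes, formed like the length score from the GC content of GENCODE transcripts known for 97.8% of genes (adjusted p = 0.0592), and 0.57 as deviations from the genotype means (adjusted p = 0.037). The genes most alike to Pdgfb were Lypla2 (rho 0.88) and Igfbp2, Sec14l1 and Cacng8 (0.86 each).

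Pdgfc (Entrez 54635, chromosome 3, 81036416 to 81214040), a ligand of the receptor of Pdgfra that also has to be cut to act, varied least, by 2.64-fold. It was at 12.8, 9.8, 14.4 and 14 CPM in Rbpj-/- and at 13.7, 19.2, 13.1, 22.4 and 17.2 CPM in Notch1-/-Notch2-/-. In Notch1-/- the lowest, median and highest values were 11, 14.2 and 17.9 CPM, in Notch2-/- the libraries were at 16.1, 13.7, 25.9, 25.5 and 19.8 CPM, and in control the lowest, median and highest were 13.6, 16.5 and 19.4 CPM. Every Rbpj-/- library lay below the control median. Log2 differences against control were -0.38 ± 0.19 in Rbpj-/- (adjusted p = 0.184), 0.04 ± 0.18 in Notch1-/-Notch2-/-, -0.21 ± 0.17 in Notch1-/- and 0.28 ± 0.18 in Notch2-/- (-0.01 without the 3 libraries with both Xist and Ddx3y).

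The largest Pdgfc difference was between mutants, Rbpj-/- against Notch2-/-, at -0.66 ± 0.2 (adjusted p = 0.0947 by edgeR, and 0.0404 by DESeq2), where 1.7% of genes were called. Notch1-/- against Notch2-/- gave -0.49 ± 0.18 (adjusted p = 0.133), where 3.09% were called. The remaining pair, Rbpj-/- against Notch1-/-, called 0 of 6 members (0 at an unadjusted p under 0.05) and 0.263% of genes, and Rbpj-/- against Notch1-/-Notch2-/- called 0 of 6 (1 before adjustment, Pdgfc) and 0.794% of genes. DESeq2 and voom called 0 members in both. In the other tests between mutants and of the interaction edgeR called 0 of 6 too, with 2 members at an unadjusted p under 0.05 in Notch1-/-Notch2-/- against Notch2-/- and 1 in each of the rest. DESeq2 called Pdgfc in Rbpj-/- against Notch2-/- and 0 in the rest, and voom called Pdgfd and Pdgfra in Notch1-/-Notch2-/- against Notch2-/-, Pdgfc and Pdgfd in Notch1-/- against Notch2-/- and 0 in the rest. The genes most alike to Pdgfc were Pla2g4a (rho 0.79), Otud7b and Tmem81 (0.75 each) and Wdsub1 (0.74).

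Ordered by mean CPM, Pdgfra ran highest to lowest as Notch2-/-, control, Rbpj-/-, Notch1-/-, Notch1-/-Notch2-/-, and Pdgfd as control, Notch2-/-, Rbpj-/-, Notch1-/-, Notch1-/-Notch2-/-. In these orders, and in those of the other 4 members, no neighbouring genotypes differed at an adjusted p under 0.05 in the main edgeR fit. The share of the spread in log2 CPM that lay between genotypes was 54% for Pdgfd, 37.8% for Pdgfc, 35.7% for Pdgfrb, 24.2% for Pdgfra, 16.4% for Pdgfb and 15.8% for Pdgfa. With so few libraries per genotype, part of any such share arises by chance, even where genotypes do not differ. The share over all genes was not counted, so these values, the low ones above all, do not by themselves show an effect of genotype.

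The mix of ligands varied widely within genotypes. Per kilobase of deposited length, Pdgfa made up a median of 38.9% of the sum of the 4 ligands, Pdgfb 35.4%, Pdgfc 21% and Pdgfd 0.919%. The Pdgfa share rests on its short deposited length of 1018 bases. The share of Pdgfa ran from 14.5% in replicate 3 of Notch1-/-, where Pdgfb held 79.5%, to 74.5% in replicate 2 of the same genotype, where Pdgfb held 10.3%. In Rbpj-/- the share of Pdgfb ran from 19 to 63.4%, in Notch1-/-Notch2-/- from 16.7 to 36.8%, in Notch2-/- from 31.8 to 53.5% and in control from 13.2 to 46.2%. The share of Pdgfd ran from 0.148 to 1.36% in Notch1-/-Notch2-/- and from 1.36 to 4.74% in control.

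**Figure D5:**
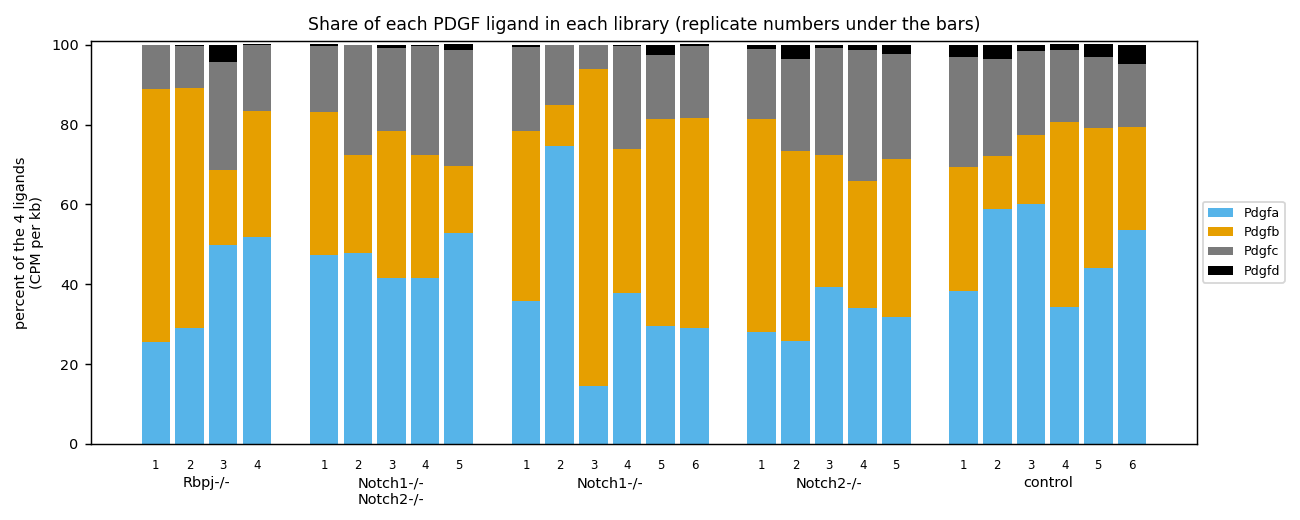
Share of Pdgfa, Pdgfb, Pdgfc and Pdgfd in the sum of the 4 ligands, from CPM per kilobase of deposited gene length. Each bar is 1 library, grouped by genotype with replicate numbers under the bars. Pdgfa and Pdgfb together hold most of each bar, and in Notch1-/- the Pdgfa share runs from 14.5 to 74.5%.

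Genes around the family were read from lists chosen for their role. Of 6 related receptor kinases, 4 fell in each of Rbpj-/-, Notch1-/-Notch2-/- and Notch1-/- and 0 in Notch2-/-, where 7.25, 18.8, 13.5 and 0.166% of all genes fell, and 0 rose in any; their median log2 fold change was -1.92, -1.97, -2.3 and -0.3. The 4 are known from macrophages and vessels. Csf1r, the receptor of microglia and macrophages, fell, with log2 fold changes of -2.64 ± 0.52 in Rbpj-/-, -3.43 ± 0.5 in Notch1-/-Notch2-/- and -3.14 ± 0.45 in Notch1-/- (adjusted p = 0.00368, 3.86e-05 and 0.000113, edgeR). Flt1, Kdr and Flt4, the VEGF receptors of endothelium, also fell, with log2 fold changes of -2.34, -1.49 and -2.35 in Rbpj-/-, -2.83, -1.71 and -2.24 in Notch1-/-Notch2-/- and -3.24, -2.04 and -2.56 in Notch1-/-. In the same comparisons 12, 13 and 14 of 15 microglia and macrophage markers and 6, 9 and 8 of 11 endothelial markers fell. With the score of microglia and macrophages in the fit Csf1r turned to 0.19, 0.12 and 0.27. Csf1r is a gene of the same cells as this score, whose marker sums did not overlap between control and these genotypes. Such a fit cannot tell genotype from these cells, and the cause of the fall was not tested. The remaining relatives, Kit and Flt3, passed in none of these comparisons. In Rbpj-/- the count was 2 without replicate 1 or 2 of that genotype and 3 or 4 without any other library.

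Of 4 ligands of these related receptors, 1 fell in each of Rbpj-/-, Notch1-/-Notch2-/- and Notch1-/-: Kitl, the ligand of Kit, with log2 fold changes of -1.75, -2.41 and -1.94. Of all genes 7.25, 18.8 and 13.5% fell in these comparisons, and lists of 4 to 7 genes cannot tell counts of 1 or 2 from such shares. Without the 3 libraries with both Xist and Ddx3y the call in Rbpj-/- ended. Of 5 VEGF ligands, 0 passed in Rbpj-/- and 1 fell in both Notch1-/-Notch2-/- (-1.21) and Notch1-/- (-1.01), Vegfc, a growth factor of lymphatic vessels. Of 7 genes for ligand processing and binding, 0 passed in Rbpj-/-, and 2 fell in both Notch1-/-Notch2-/- and Notch1-/-. Plau, a protease known to activate PDGF-D, fell in both (-1.69 and -1.68). Plat, a protease known to activate PDGF-C, fell in Notch1-/-Notch2-/- (-0.51, adjusted p = 0.019), and Sparc, which binds PDGF, in Notch1-/- (-0.82, adjusted p = 0.0412). The call of Sparc ended in 9 of 12 omissions of a single library. With single libraries left out 1 to 2 processing genes fell in Notch1-/-Notch2-/- and 1 to 3 in Notch1-/-, and without the 3 libraries with both Xist and Ddx3y 2 and 1 fell. In Notch2-/-, where 0.295% of all genes were called, edgeR called 0 genes of these 4 lists, as did DESeq2 and voom. There 1 processing gene and 1 ligand of related receptors had an unadjusted p under 0.05. In Rbpj-/- the processing list had 1 gene at an unadjusted p under 0.05, Plau (-1.39, adjusted p = 0.0687 by edgeR), which DESeq2 and voom called (adjusted p = 0.025 and 0.012), and the VEGF ligands had 0 by each measure.

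Among the signal carriers below the receptors a minority passed. Of 36 adaptors and kinases, 6 rose and 1 fell in Rbpj-/-, 5 rose and 1 fell in Notch1-/-Notch2-/- and 4 rose and 1 fell in Notch1-/-, where 7.97, 18.3 and 13.2% of all genes rose. The list's median log2 fold change was 0.23, 0.09 and 0.17. Pik3cb, a catalytic subunit of PI3 kinase, rose by 0.63 ± 0.18 in Rbpj-/-, 0.66 ± 0.17 in Notch1-/-Notch2-/- and 0.54 ± 0.16 in Notch1-/-. Akt1 and Akt2, kinases below PI3 kinase, rose by 0.78 ± 0.23 and 0.57 ± 0.17 in Rbpj-/-. Plcg1, a phospholipase that docks on PDGF receptors, rose by 0.43 ± 0.13, 0.53 ± 0.12 and 0.55 ± 0.12. Map2k1, a kinase of the MAP kinase chain, was the gene that fell, with log2 fold changes of -0.39, -0.5 and -0.45. With single libraries left out, 0 to 8 members rose in Rbpj-/- (0 without its replicate 2 or without replicate 2 of control), 3 to 7 in Notch1-/-Notch2-/- and 3 to 8 in Notch1-/-, and without the 3 libraries with both Xist and Ddx3y 3, 5 and 4 rose, and Map2k1 was no longer called in Rbpj-/-.

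Of 11 attenuators of receptor signalling, 2 rose in Rbpj-/-, and 1 rose and 1 fell in both Notch1-/-Notch2-/- and Notch1-/-. Of all genes 7.97, 18.3 and 13.2% rose and 7.25, 18.8 and 13.5% fell, so the shares in the receptor mutants are no higher than over all genes. Sh2b3, an adaptor that damps kinase signals, rose in all 3 (0.53, 0.34 and 0.49), and Ptpn1, a tyrosine phosphatase, rose in Rbpj-/- (0.52). The call of Sh2b3 in Notch1-/-Notch2-/- ended in 8 of 11 omissions of a single library, and that of Ptpn1 in 8 of 10. Sla, an adaptor known from blood cells, fell in Notch1-/-Notch2-/- (-1.75) and Notch1-/- (-2.32). Without each library in turn, 0 to 2 attenuators rose in Rbpj-/- and 0 to 1 in Notch1-/-Notch2-/-, and without the 3 libraries with both Xist and Ddx3y 1 and 0 rose.

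Of 23 genes of the growth factor response, 4 rose in Rbpj-/-, 4 rose and 1 fell in Notch1-/-Notch2-/- and 3 rose in Notch1-/-, where 7.97, 18.3 and 13.2% of all genes rose. The counts in Notch1-/-Notch2-/- and Notch1-/- are near that background. The list's median log2 fold change was 0.51, 0.05 and 0.4. Myc, a transcription factor of growth, rose by 1.51 ± 0.23, 1.77 ± 0.22 and 1.29 ± 0.21 (adjusted p = 0.000505, 8.65e-06 and 0.000291, edgeR). Fos, an immediate early gene, rose by 1.44, 2.15 and 1.09, and Fosb rose by 3.09 ± 0.58 in Notch1-/-Notch2-/-. Ccnd1, the gene of cyclin D, rose by 1.16 ± 0.32 in Rbpj-/- and 1.08 ± 0.29 in Notch1-/-. Dusp6, a phosphatase induced by MAP kinase signalling and named after its value was seen, fell in Notch1-/-Notch2-/- (-1.03 ± 0.27). With single libraries left out, 1 to 5, 3 to 5 and 2 to 11 members rose, the 11 in Notch1-/- without replicate 2. Without the 3 libraries with both Xist and Ddx3y 3 members rose in each. In Notch2-/-, where 0.128% of all genes rose, edgeR and DESeq2 called 0 genes of the last 3 lists. There 5 adaptors and kinases, 2 attenuators and 4 response genes had an unadjusted p under 0.05, and voom called 3 higher and 1 lower, 2 higher, and 4 higher in these lists. The share of all genes that voom called there was not counted, so these counts cannot be set against it.

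The 58 calls against control of named genes outside the family often ended with a marker score in the fit, and those in Rbpj-/- also without single libraries. With the score of microglia and macrophages in the fit 57 of the 58 were lost, while 52 kept their sign and 42 kept at least 0.5 of their log2 fold change. The median absolute log2 fold change was then 0.94, against 1.46 without the score, and the median SE 0.54, against 0.34. Fos and Fosb in Notch1-/-Notch2-/- were then at 1.94 ± 0.65 and 3.6 ± 1.14 (adjusted p = 0.117 and 0.101, edgeR). The microglia and macrophage markers summed to at most 209, 146 and 236 CPM in Rbpj-/-, Notch1-/-Notch2-/- and Notch1-/-, and to at least 321 CPM in control. Their level nearly parts these genotypes from control, so a call lost in this fit cannot tell genotype from these cells. With the score of mural cells and fibroblasts 34 were lost and 58 kept their sign. Without the 3 libraries with both Xist and Ddx3y 8 were lost, with only the compared libraries in the fit 11, and with the replicate block 10. Of the 18 calls in Rbpj-/- 11 were lost without its replicate 1, and 11 without its replicate 2. In that genotype Map2k1 lost its call in 7 of 10 omissions of a single library, Sox6 in 6, and Kitl, Kdr and Plcg1 in 5 each.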

How the data were processed

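Per the labels' protocols, RNA of sorted cells was made into stranded libraries and sequenced on an Illumina NextSeq. The authors deposited read counts per mouse gene with a gene length; STAR and mm10 are named in the submitters' processing notes, while of the counting tool, annotation and strand setting nothing is said (not given in the sources used here). The deposited lengths, another quantity from the authors, served only for levels per kilobase and the score of long minus short genes. Of 24454 genes, 24374 matched RefSeq by Entrez identifier; coordinates are those of the RefSeq record on GRCm38.p6. Libraries held 30868828 to 48103535 counts, which gives Pdgfd few counts. Pdgfrb had few in some libraries, down to 19, while Pdgfa, Pdgfb, Pdgfc and Pdgfra had 176 or more in each library. Among 56 pairs of libraries within genotypes none agreed within sampling noise (chi-square of at least 42.3 per gene).

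All 26 libraries entered 1 fit in edgeR 4.0.16 (R 4.3.3): TMM scaling, filterByExpr by genotype, the quasi-likelihood F-test, and Benjamini-Hochberg adjustment over 15617 genes with a threshold of 0.05. The SE is the absolute log2 fold change divided by the square root of F. CPM was taken over totals scaled by TMM. A prior count of 2 was added for log2 CPM. Marker scores are mean log2 CPM over a list. Correlations used 100000 permutations, two-sided. Alternatives were DESeq2 1.42.0 (test, and size factors alone), voom with quality weights in limma 3.58.1, other filters, a replicate block, marker scores as covariates, only the compared libraries, and single libraries left out. The score of long minus short genes, and leaving out 3 libraries with both Xist and Ddx3y RNA, were added after the data were seen. The fit was tested on simulated data.

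Members and lists were chosen with earlier results of these data known. Named besides the members are, per list and comparison with control, up to 3 called genes of smallest adjusted p, and per member the 4 genes of highest Spearman rho; further genes are named to account for small counts. A result of 1 listed gene is not reported here.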

Additional observations from a re-analysis of the deposited data

Results flagged for a closer look

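Of 30 sets of libraries of 1 member in 1 genotype, 2 had a library far from the rest, and chance alone flags about 1 set in 20. Pdgfa was at 24.4 CPM in replicate 2 of Notch1-/-, and the nearest other Notch1-/- library was at 8.29 CPM. Pdgfrb was at 47.6 CPM in replicate 5 of Notch1-/-, and the nearest other was at 2.44 CPM; the same library had the highest mural and fibroblast sum of the series, 1460 CPM. No explanation was tested for either value.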

How the results depend on the processing

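The count of members called depended on the test and on covariates. Requiring at least 10 CPM in 4 libraries, which removes Pdgfd, gave 0 in Notch1-/-Notch2-/- against control, 0 in Notch1-/- against control and 0 across all genotypes. DESeq2 gave 2 in Notch1-/- (Pdgfb and Pdgfd), 1 in Rbpj-/- against Notch2-/- (Pdgfc) and 2 across all genotypes. Voom gave 1 in Rbpj-/-, 2 in Notch1-/-Notch2-/-, 3 in Notch1-/- against control, 2 in Notch1-/-Notch2-/- against Notch2-/-, 2 in Notch1-/- against Notch2-/- and 2 across all genotypes. With the mural and fibroblast score there was 1 in Rbpj-/- (Pdgfrb, higher), 0 in Notch1-/- and 0 across all, and the 1 in Notch1-/-Notch2-/- was Pdgfrb, higher, in place of Pdgfd. With the microglia and macrophage score 0 remained in Notch1-/-Notch2-/-, 0 in Notch1-/- and 0 across all. The sums of its markers did not overlap between control and either of these genotypes. Fitting only the compared libraries gave 2 in Notch1-/-Notch2-/- against control and 1 against Notch2-/-. Without the 3 libraries with both Xist and Ddx3y there were 0 in Notch1-/- and 0 across all. With the score of long minus short genes there were 2 in Notch1-/-Notch2-/- against control (Pdgfd and Pdgfra) and 1 against Notch2-/- (Pdgfra). The cause was not tested for any of these. The share of all genes called under each of these settings was not counted, so a higher count may go with more calls over all genes.

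With single libraries left out, the counts ran 0 to 1 in Rbpj-/-, 0 to 3 in Notch1-/-, 1 to 1 in Notch1-/-Notch2-/- against control, 0 to 2 across all genotypes, and 0 to 1 in Rbpj-/- against Notch1-/-, Rbpj-/- against Notch2-/-, Notch1-/-Notch2-/- against Notch2-/- and Notch1-/- against Notch2-/-. Log2 differences against control that turned sign then ran -0.23 to 0.16 for Pdgfra in Rbpj-/-, -0.17 to 0.11 for Pdgfra in Notch1-/-, -0.86 to 0.02 for Pdgfrb in Rbpj-/-, and -0.27 to 0.07 for Pdgfb and -0.07 to 0.12 for Pdgfc in Notch1-/-Notch2-/-. Pdgfrb ran -0.19 to 2.92 in Rbpj-/- against Notch1-/- and -2.92 to 0 in Notch1-/- against Notch2-/-.

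Other signs that turned were, with the mural and fibroblast score, Pdgfrb against control (1.02 in Rbpj-/-, 0.82 in Notch1-/-Notch2-/-, 1.03 in Notch1-/- and 0.35 in Notch2-/-), in Rbpj-/- against Notch1-/- (-0.01) and in Notch1-/- against Notch2-/- (0.69). With the microglia and macrophage score they were Pdgfa in Rbpj-/- (0.49), Notch1-/-Notch2-/- (0.8) and Notch1-/- (0.81), Pdgfb in Rbpj-/- (-0.26) and Notch1-/- (-0.62), Pdgfc in Rbpj-/- (0.11) and Notch1-/- (0.43), Csf1r in Rbpj-/- (0.19), Notch1-/-Notch2-/- (0.12) and Notch1-/- (0.27), Sla in Notch1-/-Notch2-/- (2.26) and Notch1-/- (1.73) and Ccnd1 in Notch1-/- (-0.15). Pdgfc turned to 0 under the 10 CPM filter and -0.04 by voom in Notch1-/-Notch2-/-, and to -0.01 in Notch2-/- without the 3 libraries with both Xist and Ddx3y. Pdgfra turned to 0.05 by voom and Pdgfa to 0.14 with the score of long minus short genes, both in Notch1-/-.

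Same-numbered libraries of different genotypes were not more alike in the median than other pairs. The 47 same-numbered pairs had correlations of -0.42 to 0.63 with a median of -0.04, against -0.01 for other pairs, and 13 were over 0.1. A batch shared by only some of them would not show in the median. With the replicate block no count of members called changed, Pdgfd was at -2.74 in Notch1-/-Notch2-/- (adjusted p = 0.0144) and -2.6 in Notch1-/- (0.0186) against control (edgeR), and Pdgfrb in Rbpj-/- turned to 0.17. Few counts limit Pdgfd, and Pdgfrb in some libraries.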
